A study of Mus musculus with 8 samples.

Results

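Mouse primordial germ cells (PGCs) that had spent 6 days in culture were compared with fresh PGCs labelled E11.5PGCs. The comparison used all arrays with these titles: 2 arrays named Day6(2i+A83) and 2 named E11.5PGCs, 4 of the 8 arrays of the series. All groups carried the same genotype label, Nanog-GFP, a reporter of the pluripotency gene Nanog. The Day6 name carries 2i+A83: PD325901 (1 µM) blocks the kinase MEK, CHIR99021 (3 µM) blocks the kinase GSK3, and A83-01 (250 nM) blocks the receptors for Activin and Nodal. LIF and bFGF were added to Knockout DMEM that held 15% serum replacement. The labels give this medium and these inhibitors for the E11.5PGCs arrays as well, so they do not say what the fresh cells had met before harvest. The other 4 arrays are 2 of Day3(2i+A83), cells after 3 days of the same culture, and 2 of EG, embryonic germ cells, which are a pluripotent line grown from PGCs. The design text says that candidate pluripotent cells were sorted by flow cytometry during the culture. The labels name neither the sex of the embryos, nor how many animals were pooled, nor whether replicates were separate cultures, so the p-values measure the spread between these arrays, which may be technical.

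PGCs are the embryonic founders of eggs and sperm. They keep much of the pluripotency network active while they carry out a germ cell program of RNA-binding proteins, small RNA defence against transposons and erasure of DNA methylation, and they later enter meiosis or mitotic arrest in the gonad. In culture with growth factors they can convert to EG cells, which behave like embryonic stem cells, and inhibitors of MEK and GSK3 hold such cells in the naive state.

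Each array measured one sample in a single colour, Cy5. Values are spot intensities as deposited, scaled to a median near 20, and changes are differences of log2 intensity, Day6 minus E11.5PGCs, ± the standard error of the fit (n = 2 arrays a group). Replicate 1 of both groups was hybridised on arrays of one name series in the labels (A) and replicate 2 on the other (B), and the series entered the fit as a block, so each change is the mean of a difference within A and a difference within B. Of 23473 probes, 20136 had values on all 4 arrays and were tested. A probe was called where limma's moderated test gave a Benjamini-Hochberg adjusted p under 0.05. A group was near the floor where both arrays lay under an intensity of 4.63, the 25th percentile of the probe means. Where 1 array lay over that limit but the mean of the group under it, the size of a change is inexact, as is said of each such gene below.

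The label of the fresh cells was set against germ cell and somatic markers. Dppa3 (Stella), a marker of PGCs, read 10543 and 5303 in E11.5PGCs, Dnd1 2140.0 and 1555, and Ddx4, the germ cell RNA helicase, 626 and 498. Wt1, a marker of the gonadal somatic cells around PGCs, read 5.76 and 12.5, and Nr5a1, which drives steroid-producing cells of the gonad, 1.89 and 3.74; these were picked after their values were seen. The germ cell genes were detected far over the floor limit in both fresh samples, Wt1 was over it and Nr5a1 under it. Of the gonadal somatic list, 13 and 16 genes lay over the limit in E11.5PGCs, so signal of somatic genes was present too, and levels of different probes cannot be ranked.

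After 6 days, 1980 probes were higher (9.83% of those tested) and 3054 were lower (15.2%), 5034 in all (25%). A change over 4-fold was called for 621 probes that rose and 446 that fell, and over 16-fold for 103 and 41. Among the 14432 genes with a symbol, taking the brightest probe of each, 10.4% were called higher and 16.8% lower. The median change over all probes tested was -0.16 (-0.25 within A and -0.08 within B), and gene lists below should be read against it. Across probes, the change in series A and that in series B had a correlation of 0.727, a description over 20136 probes that share arrays. Without the block the fit called 1896 probes (9.42%), 933 probes higher (4.63%) and 963 lower (4.78%). With the 4 arrays alone 995 and 998 were called; in the full fit the spread is shared with Day3 and with the 2 EG arrays. The standard deviation of the log2 difference between the 2 arrays of a group was 0.949 at Day6 and 0.689 in E11.5PGCs, against 0.443 in EG. Both EG arrays were of series A, so the EG value holds no difference between series, unlike those of Day6 and E11.5PGCs. With the EG arrays left out, 3810 probes were called, 1621 higher and 2189 lower. Without Day6 replicate 1 the counts were 1160 and 1099, without E11.5PGCs replicate 1 they were 1305 and 1146, and without E11.5PGCs replicate 2 they were 1317 and 1965. More than 2-fold in the same direction in both series were 1269 probes that were higher (6.3%) and 1413 that were lower (7.02%). The arrays of the groups did not overlap, whatever the size, for 18.6% of probes with Day6 higher and 31% with Day6 lower.

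**Figure D1:**
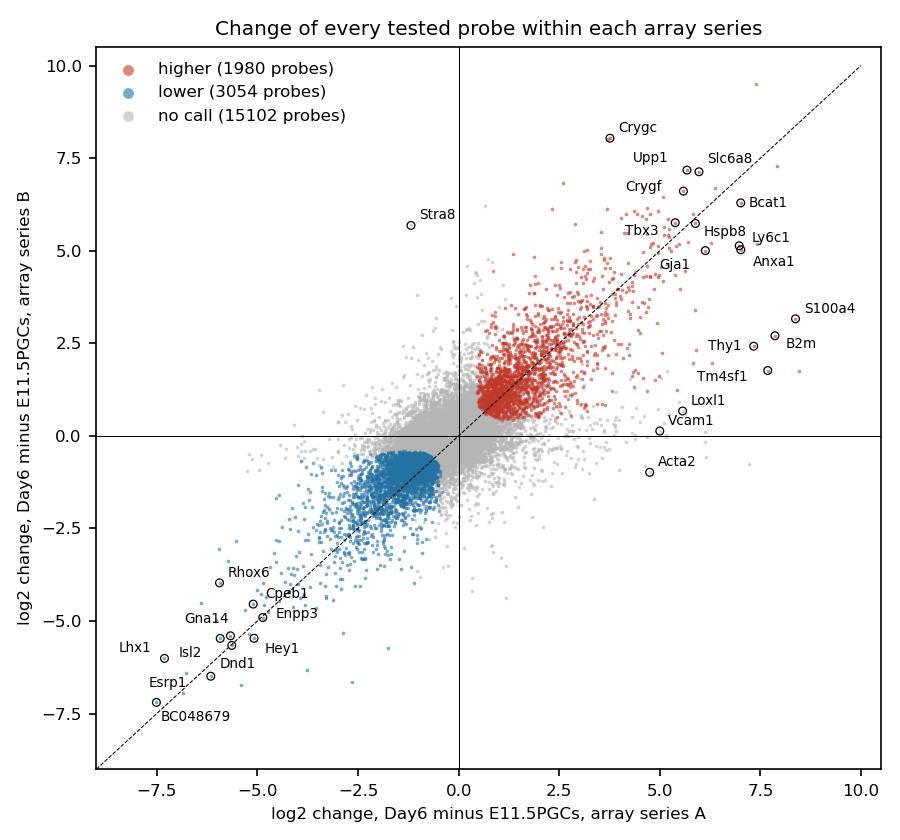
Log2 change of each of 20136 tested probes, Day6 minus E11.5PGCs, within array series A (x axis) and array series B (y axis); red, called higher (1980); blue, called lower (3054); grey, no call. Circles mark the 10 highest and 10 lowest named genes, most of them near the dashed line of equal change, and the genes whose change differed most between series, such as Stra8 and Acta2, far from it.

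Among called genes with at least 1 array over the floor limit in each group, the branched-chain amino acid transaminase gene Bcat1 rose the most. Its intensity was 2094 and 1543 at Day6, against 16.3 and 19.7 in E11.5PGCs, a change of 6.65 ± 0.42 (adjusted p = 0.00056). Slc6a8, the creatine transporter, read 785 and 818 at Day6, against 12.5 and 5.84 in E11.5PGCs, and changed by 6.55 ± 0.32 (0.000313). Upp1, a uridine phosphorylase of pyrimidine salvage, read 1885 and 2099 at Day6, against 36.9 and 14.5 in E11.5PGCs. For these 3 genes both Day6 arrays lay far above both E11.5PGCs arrays. The change of Bcat1 was 7.01 within A and 6.29 within B, and that of Upp1 5.67 within A and 7.18 within B. Hspb8, a small heat shock protein, rose by 5.81 ± 0.20, and Gja1, the gap junction protein connexin 43, rose by 5.57 ± 0.49. Tbx3, a T-box transcription factor of the naive network, read 206 and 580.0 at Day6, against 4.94 and 10.7 in E11.5PGCs, a change of 5.57 ± 0.22 with close values in the series (5.38 within A and 5.75 within B). Anxa1, the phospholipid-binding annexin A1, read 1101 and 120.3 at Day6, against 8.53 and 3.7 in E11.5PGCs, and Ly6c1, a membrane-anchored surface antigen, 4123 and 532 at Day6, against 32.9 and 15.2 in E11.5PGCs. Both genes were brighter on Day6 replicate 1 than on Day6 replicate 2 and still rose, by 6.02 ± 0.54 and 6.05 ± 0.64. The lens crystallin gene Crygf read 226 and 282 at Day6, against 4.7 and 2.88 in E11.5PGCs, and its relative Crygc 79.5 and 182 at Day6, against 5.87 and 0.693 in E11.5PGCs. The E11.5PGCs means of these crystallin genes were under the floor limit, so their sizes of change are inexact. Crygf and Crygc are close copies of each other, as Ly6c1 is of another Ly6c gene, so their probes may share signal. The call of Crygc was lost without Day6 replicate 1 and without Day6 replicate 2 (adjusted p 0.00427 to 0.0822 over the 12 alternatives).

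The largest falls, by the same rule, included transcription factor and germ cell genes. BC048679, to which no role is given here, read 5.12 and 3.72 at Day6, against 933 and 546 in E11.5PGCs, a change of -7.35 ± 0.49 (adjusted p = 0.00064). Lhx1, a LIM homeobox transcription factor, read 3.23 and 5.2 at Day6, against 513 and 335 in E11.5PGCs, and fell by 6.66 ± 0.33. Esrp1, an epithelial regulator of splicing, read 7.63 and 6.15 at Day6, against 545 and 554 in E11.5PGCs, and fell by 6.33 ± 0.54. Both Day6 arrays of each of these 3 genes lay far below both E11.5PGCs arrays. The Day6 means of BC048679, Lhx1 and Isl2 were under the floor limit, so their direction is measured but their size is inexact. Dnd1, an RNA-binding protein that germ cells need to survive, read 43 and 30.7 at Day6, against 2140.0 and 1555 in E11.5PGCs, with the same fall in both series (-5.64 within A and -5.66 within B). Isl2, another LIM homeobox gene, fell by 5.70 ± 0.22, and Hey1, a transcriptional repressor activated by Notch, fell by 5.28 ± 0.24. Gna14, a G protein alpha subunit, read 4.28 and 8.97 at Day6, against 218 and 379 in E11.5PGCs, and Enpp3, an ectoenzyme that cleaves nucleotides, 15.3 and 14.3 at Day6, against 447 and 430.4 in E11.5PGCs. Cpeb1, which binds the tails of stored messenger RNAs in germ cells, read 14.9 and 21.7 at Day6, against 512 and 508 in E11.5PGCs, and fell by 4.82 ± 0.24. Rhox6, a homeobox gene of the X-linked reproductive cluster, read 21.8 and 196 at Day6, against 1338 and 3066 in E11.5PGCs, and its fall was larger in series A (-5.94 within A and -3.97 within B).

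**Figure D2:**
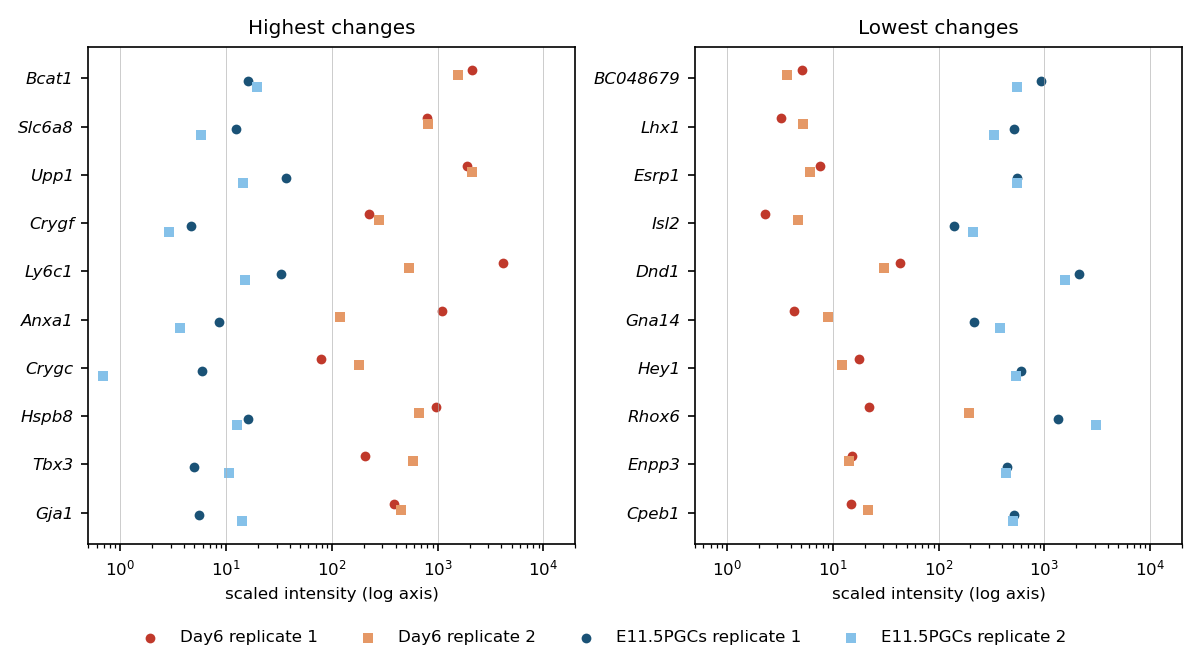
Scaled intensity (log axis) of 20 called genes with at least 1 array over the floor limit (4.63) in each group, the 10 that rose most and the 10 that fell most by the fitted change; each point is 1 array, Day6 in red and orange and E11.5PGCs in blue. The 2 arrays of a group lie apart from those of the other group for all 20 genes, with a gap that is narrowest for Rhox6 on the log axis; the lower group of BC048679, Lhx1, Isl2, Crygf and Crygc has a mean under the floor limit.

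Other genes were near the floor in one group, so the size of their change is given as a bound. Each such bound, here and below, sets the geometric mean of the brighter group against the floor limit. It applies to group means, and the change within a single series can fall short of it. Dnmt3l, the partner protein of the de novo DNA methyltransferases, read 717 and 122 at Day6, against 4.2 and 3.38 in E11.5PGCs. By the group means it was at least 63.8-fold higher, a bound of 5.995 in log2. The Day6 arrays differed, and the log2 change was 7.42 within A but 5.17 within B, under that bound. Fgf4, a growth factor secreted by pluripotent cells, read 149 and 257 at Day6, against 1.82 and 2.46 in E11.5PGCs, at least 42.3-fold higher. Armcx1, an X-linked gene with armadillo repeats, was at least 34.5-fold higher, the adenylate kinase gene Ak7 at least 29.4-fold, and Saa3, an acute-phase serum amyloid protein, at least 25.4-fold. Of genes near the floor at Day6, H19, an imprinted noncoding RNA, read 3.7 and 3.67 at Day6, against 136 and 150.1 in E11.5PGCs. The lens crystallin gene Crygs read 2.53 and 4.35 at Day6, against 99.4 and 114 in E11.5PGCs, and Umodl1 2.12 and 1.05 at Day6, against 90.7 and 112 in E11.5PGCs. Enpp2, the enzyme autotaxin, read 4.01 and 0.826 at Day6, against 54.8 and 66.1 in E11.5PGCs, and Cds1, an enzyme of phospholipid synthesis, 3.24 and 4.31 at Day6, against 52.4 and 51.9 in E11.5PGCs. All of these were called, with adjusted p between 0.000293 for Fgf4 and 0.00778 for Enpp2.

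Several core pluripotency genes were bright in the fresh cells, and more of them rose than fell. Of 12 core pluripotency genes tested (of 18 listed; Pou5f1 and Sox2 had no named probe here), 5 rose (41.67%, against 10.4% of all genes) and 2 fell (16.67%, near the 16.8% of all genes), with a median change of 0.37. Nanog, a core pluripotency transcription factor and the gene of the reporter, read 4294 and 8992 at Day6, against 1520.2 and 1707 in E11.5PGCs, a change of 1.95 ± 0.33 (adjusted p = 0.00882). The gate of the sort is not stated, and if it used the reporter, Nanog is not independent of how the Day6 cells were chosen. Tdgf1 (Cripto), the co-receptor of Nodal, read 2344 and 2529 at Day6, against 146 and 183 in E11.5PGCs, and rose by 3.90 ± 0.49. Fbxo15, an F-box gene activated in embryonic stem cells, rose by 2.43 ± 0.38. In contrast Utf1, a chromatin protein shared by pluripotent and germ cells, read 642 and 412 at Day6, against 4192 and 4537 in E11.5PGCs, and fell by 3.08 ± 0.31. Without E11.5PGCs replicate 2 the core list had 3 genes called higher, and the call of Nanog was lost there (adjusted p 0.0029 to 0.052 over the 12 alternatives).

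Regulators of naive pluripotency rose in greater number than they fell. Of 22 tested, 12 rose (54.55%, against 10.4% of all genes) and 3 fell (13.64%, against 16.8%). The median change was 0.95 (1.29 within A and 0.92 within B). Klf4, a transcription factor of the naive state, read 859 and 774 at Day6, against 55.9 and 49.2 in E11.5PGCs, nearly the same change in both series (3.94 within A and 3.97 within B). Klf4 also stands in the LIF list below and Fgf4 in both the core and the naive list, so these lists share rises. Zfp42 (Rex1), a marker of naive cells, rose by 1.83 ± 0.20. Spic, an Ets-family transcription factor, read 231 and 294 at Day6, against 10.8 and 4.63 in E11.5PGCs, and rose by 5.20 ± 0.64. Several other regulators did not pass the test. Tfcp2l1, a target of LIF, read 10.3 and 48.8 at Day6, against 16.1 and 24 in E11.5PGCs, and its arrays overlapped (change 0.19 ± 0.39, adjusted p = 0.755). Prdm14, a repressor shared by PGCs and naive cells, read 135 and 135 at Day6, against 172 and 123 in E11.5PGCs (-0.10 ± 0.21, 0.755), and the zinc finger gene Sall4 12.1 and 40.5 at Day6, against 18.4 and 47.3 in E11.5PGCs (-0.41 ± 0.20, 0.185). Klf2, a relative of Klf4, was higher on both Day6 arrays (255 and 284 at Day6, against 172 and 174 in E11.5PGCs) with an adjusted p of 0.0501, just short of a call. Esrrb, an orphan nuclear receptor, rose by 0.88 ± 0.23 with overlapping arrays (15.1 and 28.3 at Day6, against 7.2 and 17.5 in E11.5PGCs). The call of Esrrb was lost without the block, with fewer arrays, without Day6 replicate 1 and without either E11.5PGCs array (adjusted p 0.025 to 0.45 over the 12 alternatives).

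Early germ cell genes fell more often than they rose. Of 20 early germ cell genes tested, 8 fell (40%, against 16.8% of all genes) and 1 rose (5%, against 10.4%), with a median of -0.88. A bulk array cannot tell fewer cells of a kind from less RNA in each cell. Dppa3 read 456 and 1648 at Day6, against 10543 and 5303 in E11.5PGCs, a change of -3.11 ± 0.68 (adjusted p = 0.0196) that was larger in series A (-4.53 within A and -1.69 within B). Cxcr4, the chemokine receptor that guides PGC migration, read 5.26 and 9.56 at Day6, against 111 and 53 in E11.5PGCs, and fell by 3.43 ± 0.43. Nanos3, which protects PGCs from cell death, was lower on both Day6 arrays at 121 and 174 at Day6, against 919.8 and 368 in E11.5PGCs, with an adjusted p of 0.0502. Prdm1 (Blimp1), which specifies PGCs, read 16.1 and 15.7 at Day6, against 19.7 and 44.3 in E11.5PGCs (-0.89 ± 0.38, adjusted p = 0.135). Tfap2c, which acts with it, read 195 and 535 at Day6, against 713 and 503 in E11.5PGCs (-0.89 ± 0.48, 0.217), and Kit, the receptor of PGC survival factor, 136 and 313 at Day6, against 404 and 331 in E11.5PGCs (-0.83 ± 0.43, 0.203). Prdm1, Tfap2c and Kit were therefore lower on average without passing the test. Dppa3 lost its call without Day6 replicate 1, without E11.5PGCs replicate 1 and with the 4 arrays alone (adjusted p 0.00867 to 0.127 over the 12 alternatives). The list had 5 genes called lower without Day6 replicate 1 and 5 without E11.5PGCs replicate 1.

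Later germ cell genes and genes of the piRNA pathway, which silences transposons with small RNAs, gave falls alone. Of 26 tested, 14 fell (53.85%, against 16.8% of all genes) and 0 rose (against 10.4%). The median was -1.19 (-1.20 within A and -0.97 within B). Asz1, a piRNA protein of the mitochondrial surface, read 11.531 and 56 at Day6, against 711 and 464 in E11.5PGCs, and fell by 4.50 ± 0.66. Tdrkh, a Tudor protein that helps trim piRNAs, read 25.1 and 15.4 at Day6, against 499 and 237 in E11.5PGCs, and fell by 4.13 ± 0.25. Mov10l1, the helicase that feeds precursors to the PIWI proteins, read 3.09 and 2.51 at Day6, against 30.4 and 52.5 in E11.5PGCs, near the floor at Day6, where its level was at most 0.116 of that in E11.5PGCs. Ddx4 read 187 and 182 at Day6, against 626 and 498 in E11.5PGCs, and fell by 1.60 ± 0.21. Dazl, an RNA-binding regulator of germ cell translation, was lower on both Day6 arrays at 188 and 1024 at Day6, against 2024 and 1867 in E11.5PGCs, with no call (adjusted p = 0.0698) and unequal changes (-3.43 within A and -0.87 within B). The count of genes called lower in this list was 11 without the block, 11 without Day6 replicate 1 10 without E11.5PGCs replicate 1 and 10 with the 4 arrays alone; 1 member was called higher in the 6 arrays without EG.

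The promoters of these genes are shown because many of them held the same short word. RefSeq promoter windows (build GRCm38.p6, 250 bases before to 50 after the start site) were at hand for 10 of the 14 later germ cell genes called lower, and 6 of the 10 held CACGTG, a palindrome known as an E-box. The word stood in 10.67% of the 11588 tested genes with a window and in 7.15% of all 32851 windows. It was not particular to this list. Of called genes with a window, it stood in 4 of 8 lower on the meiosis list and 2 of 7 lower on the cholesterol list. It also stood in 4 of 12 genes called higher on the p53 list. CACGTG was singled out after the counts of 15 words in 4 lists were seen, and a match is a description, not a binding site. Capitals mark the word below, 5′ to 3′ on the strand of the gene, for Mov10l1 (chr15:88982744-88982780, plus strand), Mael (chr1:166238935-166238994, minus strand) and Ddx4 (chr13:112652307-112652366, minus strand).
Mov10l1: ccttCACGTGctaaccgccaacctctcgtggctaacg
Mael: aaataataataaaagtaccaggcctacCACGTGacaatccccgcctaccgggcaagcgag
Ddx4: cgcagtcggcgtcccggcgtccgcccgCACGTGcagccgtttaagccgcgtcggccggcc
The word began 246, 223 and 29 bases before the start site in Mov10l1, Mael and Ddx4. Mael, a piRNA factor of germ granules, read 164 and 82.3 at Day6, against 653 and 314 in E11.5PGCs, and fell by 1.96 ± 0.19; it was picked with Mov10l1 and Ddx4 for this display after its values were seen.

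Of 22 meiotic genes tested, 10 fell (45.45%, against 16.8% of all genes) and 0 rose (against 10.4%), with a median of -0.91. The absence of rises did not hold under all of the 12 alternatives. Stag3, the meiotic cohesin subunit, read 27 and 36.8 at Day6, against 302 and 267 in E11.5PGCs, and fell by 3.17 ± 0.23. Rad51c, a recombination protein, fell by 2.78 ± 0.40, and Mei4, which is needed to start DNA breaks, fell by 2.30 ± 0.28. Smc1b, another meiotic cohesin subunit, read 10.9 and 70.5 at Day6, against 152 and 127 in E11.5PGCs, and its call was lost in 7 of the 12 alternatives, among them without Day6 replicate 1 and without E11.5PGCs replicate 1 (adjusted p 0.0153 to 0.268). Stra8, the gene that retinoic acid turns on at meiotic entry, had the largest difference between series among genes bright enough to be ranked for it. Its intensity was 33.7 and 328 at Day6, against 76.5 and 6.39 in E11.5PGCs, a change of -1.18 within A and 5.68 within B, with no call (adjusted p = 0.362). The list had 3 genes called lower without the block, 5 without Day6 replicate 1 and 4 without E11.5PGCs replicate 1.

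Target genes of the inhibited pathways were examined next. The MEK/ERK list, made of feedback inhibitors and targets of the kinase that PD325901 blocks, had 6 of 18 genes lower (33.33%, against 16.8% of all genes) and 1 higher (5.556%, against 10.4%), with a median of -0.37. Dusp6, the phosphatase that turns ERK off, read 36.4 and 4.9 at Day6, against 227 and 488 in E11.5PGCs, and fell by 4.64 ± 0.88. Its fall was far larger in series B (-2.64 within A and -6.64 within B), and its call was lost without Day6 replicate 2 and with the 4 arrays alone (adjusted p 0.00277 to 0.066 over the 12 alternatives). Spry1, a receptor tyrosine kinase feedback inhibitor, read 9.68 and 6.48 at Day6, against 55.2 and 47.8 in E11.5PGCs, and fell by 2.70 ± 0.24. Its relative Spry4 read 2.63 and 1.26 at Day6, against 33.8 and 21.2 in E11.5PGCs, near the floor at Day6, where its level was at most 0.173 of that in E11.5PGCs. Spred1, a related inhibitor, fell by 2.49 ± 0.37. The median of this list was -0.14 without Day6 replicate 2, close to that of all probes, -0.78 without Day6 replicate 1 and -0.61 when the dimmest probes were left out.

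The targets of beta-catenin, the protein that GSK3 inhibition stabilises, were called no more often than genes at large: of 15 tested, 1 rose (6.667%, against 10.4% of all genes) and 2 fell (13.33%, against 16.8%), with a median of -0.09. Cdx1, a caudal homeobox gene, rose by 1.15 ± 0.20. Lef1, a DNA-binding partner of beta-catenin, read 3.18 and 2.45 at Day6, against 31.9 and 40.5 in E11.5PGCs, near the floor at Day6 at no more than 0.129 of its E11.5PGCs level, and Tcf7, its relative, fell by 0.94 ± 0.19. Ephb2, a receptor tyrosine kinase, read 283 and 469 at Day6 and 352 and 383 in E11.5PGCs, with overlapping arrays (-0.01 ± 0.24, adjusted p = 0.978). Without Day6 replicate 1 the calls of Cdx1 and Tcf7 were lost, as they were without E11.5PGCs replicate 1, and that of Tcf7 also without E11.5PGCs replicate 2 and without the block (adjusted p 0.0035 to 0.0671 for Cdx1 and 0.00852 to 0.183 for Tcf7 over the 12 alternatives).

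Genes of the TGF-beta, Activin and Nodal pathway, whose receptors A83-01 blocks, moved both ways: 6 of 17 rose (35.29%, against 10.4% of all genes) and 6 fell (35.29%, against 16.8%), with a median of -0.08 (0.53 within A and -0.68 within B). Lefty1, a secreted inhibitor and direct target of Nodal, read 13.2 and 14 at Day6, against 400.4 and 269 in E11.5PGCs, and fell by 4.59 ± 0.32. Its level was 10.8 and 17.4 at Day3 and 551 and 434 in EG. Skil, a repressor of SMAD signalling that is itself a target, read 8.13 and 5.91 at Day6, against 57.8 and 55.1 in E11.5PGCs, and fell by 3.02 ± 0.20. Id1, an inhibitor of differentiation activated by BMP, read 352 and 14.5 at Day6, against 1186 and 767 in E11.5PGCs, and fell by 3.74 ± 0.84, mostly in series B (-1.75 within A and -5.72 within B). The members that rose included Tdgf1 and Cdkn1a, which also stand in other lists. With these and Id1 the list is not confined to targets of the blocked receptors, and the effect of A83-01 was not tested. The list median was -0.56 without Day6 replicate 1 and 0.41 without Day6 replicate 2. Id1 lost its call without Day6 replicate 2, with the 4 arrays alone and without the block (adjusted p 0.00398 to 0.206 over the 12 alternatives), and the list had 3 genes called lower without the block, without Day6 replicate 2 or without E11.5PGCs replicate 2.

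Of 18 genes of LIF and STAT3 signalling, 4 rose (22.22%, against 10.4% of all genes) and 1 fell (5.556%, against 16.8%), with a median of 0.11. Stat3, the transcription factor that LIF activates, read 137 and 103 at Day6, against 22.8 and 28 in E11.5PGCs, and rose by 2.24 ± 0.23. Bcl3, a nuclear factor kappa B regulator, read 25.3 and 60.2 at Day6, against 6.89 and 4.16 in E11.5PGCs, and rose by 2.86 ± 0.44. Jak2, a kinase of cytokine receptors, fell by 1.18 ± 0.30, a call lost in 6 of the 12 alternatives, with each of the 4 arrays left out among them (adjusted p 0.0191 to 0.157).

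Targets of p53, the DNA damage response factor, had the largest share of rises of all 26 lists. Of 23 p53 targets and inhibitors of cyclin-dependent kinases tested, 15 rose (65.22%, against 10.4% of all genes) and 1 fell (4.348%, against 16.8%). The median was 1.11 (0.71 within A and 1.48 within B). Ccng1, a cyclin G target of p53, read 528 and 604 at Day6, against 32.3 and 29.2 in E11.5PGCs, and rose by 4.20 ± 0.19. Phlda3, a p53-activated inhibitor of AKT, read 542 and 593 at Day6, against 42.1 and 23.5 in E11.5PGCs, and rose by 4.17 ± 0.32. Cdkn1a, the p21 inhibitor, read 361 and 219 at Day6, against 71.6 and 31.1 in E11.5PGCs, and rose by 2.58 ± 0.21. Eda2r, a receptor encoded on the X chromosome, rose by 2.98 ± 0.23. The 1 gene that fell was Cdkn1c, the imprinted inhibitor p57, at 10.4 and 15.4 at Day6, against 221 and 200.4 in E11.5PGCs. The count of rises was 9 without the block, 9 with the 4 arrays alone and 9 without E11.5PGCs replicate 2. Ccng1 read 366 and 408 at Day3 and 367 and 361 in EG, and Phlda3 read 759 and 482 at Day3 and 458 and 293 in EG.

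Cell cycle genes were called about as often as genes at large: of 30 tested, 3 rose (10%) and 4 fell (13.33%), against 10.4% and 16.8% of all genes, with a median of -0.15. Ccne1, the cyclin of entry into S phase, rose by 1.24 ± 0.27, and Cdc25b, a phosphatase that activates CDK1, rose by 1.11 ± 0.20. Mki67, the proliferation marker Ki-67, read 157 and 246 at Day6, against 405 and 464 in E11.5PGCs, and fell by 1.14 ± 0.21. Bub1, a spindle checkpoint kinase, fell by 2.13 ± 0.55, with one Day6 array far below the other (37.8 and 457) and overlap with E11.5PGCs (402 and 818). Each of these 4 calls was lost without the block and without Day6 replicate 1, and those of Ccne1, Mki67 and Bub1 without E11.5PGCs replicate 1, so that 0 list members were called without the block (adjusted p without the block: 0.124 for Ccne1, 0.227 for Cdc25b, 0.0545 for Mki67 and 0.32 for Bub1).

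Genes of amino acid supply and of the response to its shortage rose where they were called in the main fit. For the amino acid list this did not hold under all of the 12 alternatives. Of 19 genes of amino acid and one-carbon metabolism, 5 rose (26.32%, against 10.4% of all genes) and 0 fell (against 16.8%). Their median was 0.54 (0.80 within A and 0.28 within B) and was 0.13 without Day6 replicate 1. Besides Bcat1, its mitochondrial relative Bcat2 read 95.4 and 115 at Day6, against 16.5 and 20.1 in E11.5PGCs, and rose by 2.52 ± 0.23. Slc7a3, a transporter of arginine and lysine, read 372 and 325 at Day6, against 20.3 and 31.2 in E11.5PGCs, and the glutamine transporter Slc1a5 read 242 and 255 at Day6, against 37.4 and 32.2 in E11.5PGCs; they rose by 3.79 ± 0.73 and 2.84 ± 0.25. Of 18 genes of the integrated stress response, the program under ATF4 that senses amino acid shortage and misfolded protein, 7 rose (38.89%, against 10.4% of all genes) and 0 fell (against 16.8%). The median of this list was 0.83 (1.08 within A and 0.26 within B) and was 0.0934 without Day6 replicate 1. Asns, asparagine synthetase, read 4704 and 4215 at Day6, against 1963 and 1007 in E11.5PGCs, and rose by 1.66 ± 0.32. Chac1, which degrades glutathione, read 352 and 45 at Day6, against 15.9 and 6.23 in E11.5PGCs, and Atf5, a relative of ATF4, 95.5 and 22.4 at Day6, against 15.3 and 7.87 in E11.5PGCs. Nupr1, a stress-induced nuclear protein, read 115 and 31.1 at Day6, against 4.27 and 1.61 in E11.5PGCs, at least 12.9-fold higher. Chac1, Atf5 and Nupr1 were several-fold brighter on Day6 replicate 1 than on Day6 replicate 2. The number of rises in the list was 2 without the block, 1 without Day6 replicate 1, 3 without E11.5PGCs replicate 1 and 1 without E11.5PGCs replicate 2. Over the 12 alternatives the adjusted p ran 0.00452 to 0.0722 for Asns, 0.0143 to 0.127 for Chac1, 0.00688 to 0.104 for Atf5, 0.00663 to 0.0697 for Nupr1 and 0.00687 to 0.0918 for Slc7a3, each above the threshold without Day6 replicate 1 and without E11.5PGCs replicate 2.

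Sugar metabolism and respiration were examined next. Of 23 glycolysis genes, 5 rose (21.74%, against 10.4% of all genes) and 2 fell (8.696%, against 16.8%), with a median of 0.08. Slc2a3, the glucose transporter GLUT3, read 2090.2 and 1853 at Day6, against 574 and 401 in E11.5PGCs, and rose by 2.04 ± 0.23, and Hk2, hexokinase of the first step, read 831 and 832 at Day6, against 223 and 193 in E11.5PGCs, and rose by 2.00 ± 0.21. Pdk1, a pyruvate dehydrogenase kinase, read 34.3 and 12.2 at Day6, against 206 and 202 in E11.5PGCs, and fell by 3.32 ± 0.70. Pfkfb3, a regulator of phosphofructokinase, fell by 2.09 ± 0.27. Neither fall was called without the block (adjusted p 0.0102 to 0.111 for Pdk1 and 0.000944 to 0.104 for Pfkfb3 over the 12 alternatives), and that of Pdk1 was lost also without either Day6 array and without E11.5PGCs replicate 2. The rises in this list numbered 2 without the block, without Day6 replicate 1 or without E11.5PGCs replicate 1. Of 30 subunits of oxidative phosphorylation, 1 rose (3.333%, against 10.4% of all genes) and 3 fell (10%, below the 16.8% of all genes). Their median was -0.25, -0.0493 without Day6 replicate 1 and -0.48 without Day6 replicate 2. The riser was Ndufa1, a subunit of complex I encoded on the X chromosome, at 2530.4 and 2268 at Day6, against 1137 and 897 in E11.5PGCs, a change of 1.25 ± 0.19. Ndufs3 of complex I fell by 0.92 ± 0.23, Cox7a2 of complex IV fell by 0.89 ± 0.19, and Sdha of complex II fell by 0.75 ± 0.21; without the block, without Day6 replicate 1 or without E11.5PGCs replicate 1, 0 genes of this list were called lower (adjusted p up to 0.196, 0.218 and 0.242 over the 12 alternatives). The call of Ndufa1 was lost with the 4 arrays alone (adjusted p 0.00109 to 0.0506).

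Most cholesterol synthesis genes fell. Of 17 tested, 10 fell (58.82%, against 16.8% of all genes) and 1 rose (5.882%, against 10.4%). The median was -0.95 and was close in the series (-1.03 within A and -0.98 within B). Dhcr7, the enzyme of the last step to cholesterol, read 13.6 and 12.1 at Day6, against 77.7 and 69.2 in E11.5PGCs, with the same fall in both series (-2.52 within A and -2.52 within B). Srebf2 (SREBP2), the transcription factor that activates the pathway, read 26.3 and 46.7 at Day6, against 95.7 and 139 in E11.5PGCs, and fell by 1.72 ± 0.26. Tm7sf2, a sterol reductase, fell by 1.82 ± 0.21, and Stard4, a cholesterol carrier, fell by 1.62 ± 0.19. The 1 member that rose was Ebp, a sterol isomerase encoded on the X chromosome, at 1674 and 1128 at Day6, against 745 and 322 in E11.5PGCs; its change was 1.49 ± 0.24, it lost its call without the block (adjusted p = 0.15), and it was named after its value was seen. The falls numbered 5 without the block, 4 without Day6 replicate 1 and 6 without E11.5PGCs replicate 1 or with the 4 arrays alone, and the adjusted p ran 0.00194 to 0.0504 for Srebf2 and 0.000518 to 0.052 for Tm7sf2 over the 12 alternatives. Promoter windows were at hand for 7 of the 10 genes, and all 7 held CCAAT or its complement ATTGG, a word found in 42.11% of tested genes with a window and in 37.41% of all windows. It was singled out after the same counts were seen as for the E-box above, and it may overlap other words. It is marked in capitals for Tm7sf2 (chr19:6067866-6067924, minus strand), Srebf2 (chr15:82147107-82147165, plus strand) and Idi1 (chr13:8885534-8885592, plus strand), where it began 47, 135 and 45 bases before the start site (for Idi1, 1 of 2 matches).
Tm7sf2: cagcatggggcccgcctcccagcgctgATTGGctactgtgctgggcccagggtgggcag
Srebf2: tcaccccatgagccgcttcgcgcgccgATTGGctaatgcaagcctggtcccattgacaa
Idi1: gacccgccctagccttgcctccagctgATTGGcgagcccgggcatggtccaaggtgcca
Idi1, an isomerase of the early pathway chosen for display after its values were seen, read 162 and 147 at Day6, against 425 and 511 in E11.5PGCs, and fell by 1.60 ± 0.22.

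**Figure D3:**
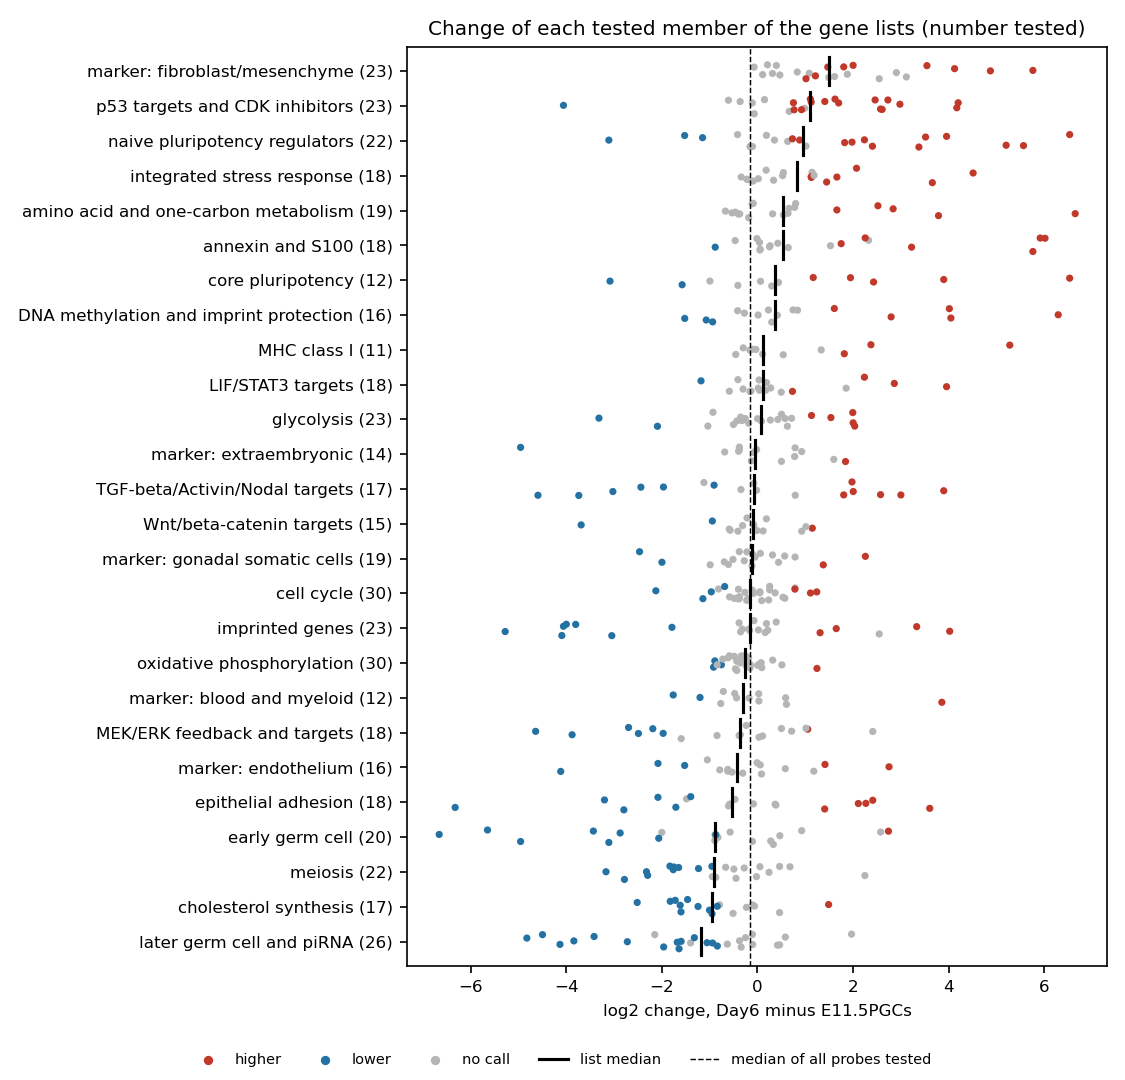
Log2 change (Day6 minus E11.5PGCs) of each tested member of 26 gene lists, ordered by list median (black bar), with the number tested in brackets; red, called higher; blue, called lower; grey, no call; dashed line, median of all probes tested (-0.16). The list of p53 targets (15 of 23 higher) lies at the top with the fibroblast markers, and cholesterol synthesis (10 of 17 lower) and later germ cell genes (14 of 26 lower) at the bottom.

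Genes of DNA methylation moved both ways. Of 16 genes of DNA methylation and imprint protection tested, 5 rose (31.25%, against 10.4% of all genes) and 3 fell (18.75%, near the 16.8% of all genes), with a median of 0.36. Dnmt3b, a de novo methyltransferase, read 1264 and 839.8 at Day6, against 70.6 and 57.4 in E11.5PGCs, and rose by 4.02 ± 0.27. Uhrf1, which brings the maintenance enzyme to replicated DNA, read 2365 and 1567 at Day6, against 166 and 81.3 in E11.5PGCs, and rose by 4.05 ± 0.21. Tet2, an enzyme that oxidises methylated cytosine, read 19.9 and 82.5 at Day6, against 3.78 and 8.96 in E11.5PGCs, and rose by 2.80 ± 0.24, with an adjusted p of 0.0898 without the block. Dnmt3l, described above, belongs to this list. None of the 3 falls was called without the block, without Day6 replicate 1 or without E11.5PGCs replicate 1. Zfp57, a zinc finger protein that guards imprints, had values on both Day6 arrays (27.2 and 43.6) and on neither E11.5PGCs array.

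Imprinted genes split, with 4 of 23 higher (17.39%, against 10.4% of all genes), 7 lower (30.43%, against 16.8%) and a median of -0.16, the same as that of all probes. Of those that fell, H19 was near the floor at Day6 and Slc22a18, an imprinted transporter, read 2.0 and 4.51 at Day6, against 36.4 and 72.2 in E11.5PGCs. Cdkn1c fell by 4.06 ± 0.56. In the other direction Sgce, a sarcoglycan expressed from the paternal allele, read 61.7 and 136 at Day6, against 4.43 and 7.15 in E11.5PGCs, and rose by 4.02 ± 0.49. In EG, H19 read 149.8 and 201 and Sgce 90.8 and 184. The calls in this list held at 6 or 7 falls and 3 to 5 rises over all 12 alternatives.

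Epithelial adhesion genes also split: 5 of 18 rose (27.78%, against 10.4% of all genes) and 6 fell (33.33%, against 16.8%), with a median of -0.53 that was -0.27 without Day6 replicate 1 and -0.73 without Day6 replicate 2. Besides Esrp1, the polarity gene Crb3 read 6.96 and 13.5 at Day6, against 93.1 and 85.3 in E11.5PGCs, and the desmosome protein gene Dsp 10.2 and 21.9 at Day6, against 98.8 and 109 in E11.5PGCs, falls of 3.20 ± 0.56 and 2.79 ± 0.38. Spint1, an inhibitor of membrane serine proteases, read 167 and 166 at Day6, against 19.6 and 9.54 in E11.5PGCs, and rose by 3.61 ± 0.31. Crb3 lost its call without Day6 replicate 1 and without E11.5PGCs replicate 1 (adjusted p 0.00487 to 0.0726 over the 12 alternatives), where the list had 3 and 4 genes called lower.

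Markers of other cell types were listed to show what else the samples could hold. The fibroblast and mesenchyme list had 9 of 23 genes higher (39.13%, against 10.4% of all genes) and 0 lower (against 16.8%). Its median was 1.49 (2.45 within A and 0.67 within B), 0.77 without Day6 replicate 1 and 2.53 without Day6 replicate 2. The summed intensity of the list was 7425 and 3466 at Day6, against 1474 and 1874 in E11.5PGCs, and 24 and 20 of its genes with a value lay over the floor limit at Day6, against 18 and 16 in E11.5PGCs. Collagen genes of the list were brightest on Day6 replicate 1, such as Col1a2 at 129 and 19.9 at Day6, against 16.9 and 33.6 in E11.5PGCs, chosen after its values were seen. Thy1, a surface marker of fibroblasts, read 747 and 10.7 at Day6, against 4.64 and 1.99 in E11.5PGCs, and Ankrd1, a target of stretch and YAP signalling, 445 and 3.97 at Day6, against 5.71 and 1.01 in E11.5PGCs. Both were bright on Day6 replicate 1 and far dimmer on the other 3 arrays. The E11.5PGCs means of Thy1 and Ankrd1 were under the floor limit, so their sizes of change are inexact. Ddr2, a collagen receptor, read 32.4 and 78 at Day6, against 5.52 and 3.35 in E11.5PGCs, and was called higher, with an E11.5PGCs mean under the floor limit, so that the size is inexact. The rises numbered 1 without the block, 2 without Day6 replicate 1, 2 with the 4 arrays alone and 1 without E11.5PGCs replicate 1, but 16 without Day6 replicate 2. Over the 12 alternatives the adjusted p of Thy1 ran 0.00369 to 0.143 and that of Ankrd1 0.00975 to 0.28. The part of cells with these markers in the other changes was not tested.

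Of the 8 genes whose change differed most between series, all but Stra8 were brightest on Day6 replicate 1. S100a4, a calcium-binding protein of fibroblasts, read 1335 and 13.2 at Day6, against 4.04 and 1.48 in E11.5PGCs, Tm4sf1, a tetraspanin-like surface protein, 706 and 6.21 at Day6, against 3.44 and 1.83 in E11.5PGCs, and Loxl1, an enzyme that crosslinks elastin, 172 and 6.31 at Day6, against 3.63 and 3.97 in E11.5PGCs. Vcam1, an adhesion molecule of stroma and endothelium, read 201 and 8.23 at Day6, against 6.29 and 7.52 in E11.5PGCs, and Acta2, the smooth muscle actin, 198 and 6.14 at Day6, against 7.37 and 12.2 in E11.5PGCs. For Loxl1, Vcam1 and Acta2, Day6 replicate 2 lay near the E11.5PGCs arrays and Day6 replicate 1 far above them. B2m, the light chain of MHC class I, read 3942 and 191 at Day6, against 17 and 29.3 in E11.5PGCs. Of these genes S100a4, Tm4sf1, B2m and Thy1 were called higher, and Loxl1, Vcam1, Acta2 and Stra8 were not. The fitted change of B2m was 5.28 ± 1.03; S100a4, Tm4sf1 and Thy1 had E11.5PGCs means under the floor limit, so no exact size is given. Each call was lost without E11.5PGCs replicate 1, and those of S100a4 and Tm4sf1 without Day6 replicate 1 and without the block (adjusted p 0.00778 to 0.149, 0.014 to 0.232 and 0.00728 to 0.0701 over the 12 alternatives).

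**Figure D4:**
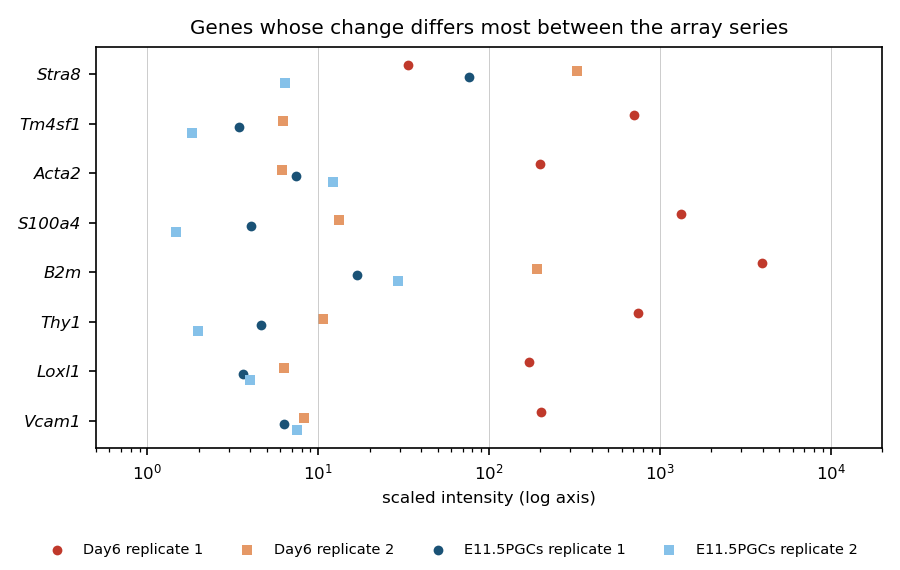
Scaled intensity (log axis) of the 8 genes whose Day6 minus E11.5PGCs change differed most between the array series; each point is 1 array, Day6 in red and orange and E11.5PGCs in blue. For Tm4sf1, Acta2, S100a4, Thy1, Loxl1 and Vcam1 the Day6 replicate 1 point (circle, red) lies far right of the other 3 points, while for Stra8 Day6 replicate 2 is the brightest.

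Annexin, S100 and MHC class I genes, which mesenchymal cells also express, followed. Of 18 annexin and S100 genes, 6 rose (33.33%, against 10.4% of all genes) and 1 fell (5.556%, against 16.8%). The median was 0.54 (1.26 within A and 0.13 within B). Anxa8 read 125 and 71.2 at Day6, against 2.19 and 1.11 in E11.5PGCs, at least 20.4-fold higher. S100a10, the partner of annexin A2, read 1101 and 374 at Day6, against 70.1 and 67.1 in E11.5PGCs, and rose by 3.23 ± 0.35. Of 11 MHC class I genes tested, 3 rose (27.27%, against 10.4% of all genes) and 0 fell (against 16.8%). Their median was 0.11 (0.96 within A and 0.03 within B), -0.0381 without Day6 replicate 1 and 0.92 without Day6 replicate 2. Besides B2m the risers were the peptide transporter Tap1, at 26.1 and 23.1 at Day6, against 4.64 and 4.83 in E11.5PGCs, and the immunoproteasome subunit Psmb9, at 62.5 and 21.8 at Day6, against 12.3 and 8.9 in E11.5PGCs. The E11.5PGCs values of Tap1 lay just over the floor limit of 4.63, so its size of change is inexact. Pdia3, a chaperone that loads peptide on class I molecules, read 753 and 1239 at Day6 and 755 and 1061 in E11.5PGCs (0.11 ± 0.20, adjusted p = 0.722). Tap1 rose by 2.38 ± 0.25 and kept its call in all 12 alternatives, while the call of Psmb9 was lost without the block and without E11.5PGCs replicate 1 (adjusted p 0.00399 to 0.0699). The list had 1 gene called higher without E11.5PGCs replicate 1.

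The other marker lists were called at shares near those of genes at large or lower, with 10.4% of all genes higher and 16.8% lower. Of 19 gonadal somatic genes 2 rose (10.53%) and 2 fell (10.53%), and their summed intensity was 216 and 181 at Day6, against 171 and 203 in E11.5PGCs. Amhr2, the receptor of anti-Müllerian hormone, read 42.2 and 30.9 at Day6, against 7.87 and 7.22 in E11.5PGCs, and Fst, the activin antagonist follistatin, 23.4 and 6.03 at Day6, against 5.51 and 3.8 in E11.5PGCs, both called higher. The E11.5PGCs mean of Fst was under the floor limit, so its size of change is inexact. Lhx9, a factor of the gonadal ridge, read 1.68 and 1.74 at Day6, against 10.501 and 8.47 in E11.5PGCs, and Pax8, a paired box gene of the urogenital tract, 6.8 and 4.48 at Day6, against 23.5 and 20.7 in E11.5PGCs, both called lower. The call of Fst was lost in 5 of the 12 alternatives, without Day6 replicate 1 and without E11.5PGCs replicate 1 among them (adjusted p 0.0097 to 0.222).

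Of 16 endothelial genes 2 rose (12.5%) and 3 fell (18.75%), with a summed intensity of 416 and 462 at Day6, against 619.7 and 774 in E11.5PGCs. Cldn5, the tight junction protein of endothelium, read 4.11 and 6.87 at Day6, against 105 and 80.7 in E11.5PGCs, and fell by 4.12 ± 0.30. Pecam1, which PGCs and pluripotent cells also carry, read 61.2 and 138 at Day6, against 184 and 377 in E11.5PGCs, and fell by 1.52 ± 0.23, with an adjusted p of 0.131 without the block. Plvap, a protein of endothelial fenestrae, fell by 2.08 ± 0.38, and Tek, the angiopoietin receptor, was near the floor in E11.5PGCs and at least 2.65-fold higher. Plvap lost its call without Day6 replicate 1 and without E11.5PGCs replicate 2 (adjusted p 0.0048 to 0.0883 over the 12 alternatives).

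Of 12 blood and myeloid genes 1 rose (8.333%) and 2 fell (16.67%), with a summed intensity of 453 and 329.9 at Day6, against 232 and 285 in E11.5PGCs. Laptm5, a lysosomal protein of blood cells, read 205 and 96 at Day6, against 8.98 and 10.4 in E11.5PGCs, and rose by 3.86 ± 0.33. Tyrobp, a signalling adaptor of myeloid cells, read 11.1 and 11.7 at Day6, against 43.3 and 34.6 in E11.5PGCs, and fell by 1.76 ± 0.20. Cd52 was called lower, with a Day6 mean under the floor limit, and Cd68, the macrophage marker, read 131 and 83.5 at Day6 and 64.2 and 73.6 in E11.5PGCs with no call. Cd52 lost its call without the block, with the 4 arrays alone, without Day6 replicate 1 and without E11.5PGCs replicate 1 (adjusted p 0.00564 to 0.0683 over the 12 alternatives).

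Of 14 extraembryonic genes 1 rose and 1 fell (7.143% each). The fall was Rhox6, and the rise was Apoe, the apolipoprotein, at 2144 and 1448 at Day6, against 479.6 and 503 in E11.5PGCs. Cdx2, of trophectoderm, read 77.2 and 43.1 at Day6 and 81.1 and 45.6 in E11.5PGCs, and Gata6, of primitive endoderm, 43.6 and 28.8 at Day6 and 21.2 and 19.8 in E11.5PGCs, both with no call. Apoe rose by 1.84 ± 0.33, and its call was lost without Day6 replicate 1 and without E11.5PGCs replicate 1 (adjusted p 0.0035 to 0.0649 over the 12 alternatives).

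X-linked genes departed from the autosomes, a pattern noticed after the values were seen. Of 480 X-linked genes tested, 113 were called higher (23.5%) and 38 lower (7.92%), while the share of genes called higher on the 19 autosomes ran 7.74% to 13.2% and the share called lower 14.5% to 23.4%. The median change of X-linked genes was 0.17 (0.06 within A and 0.31 within B), against -0.27 to -0.15 on the autosomes. More than 2-fold higher in both series were 17.5% of X-linked genes, against 4.34% to 8.29% on the autosomes. The ratio of the median X-linked to the median autosomal intensity, over 459 and 13514 genes measured on all arrays, was 1.03 and 1.39 at Day6, against 0.735 and 0.776 in E11.5PGCs. It was 0.745 and 1.00 at Day3 and 0.892 and 0.978 in EG. Both Day6 arrays therefore had a higher ratio than both E11.5PGCs arrays, but the Day6 arrays differed from each other by more than the E11.5PGCs arrays did. The share of X-linked genes called higher was 12.7% without the block (4.9% of autosomal genes there) and 13.8% with the 4 arrays alone. With the 4 arrays alone 995 probes were called higher, against 1980 in the main fit. The autosomal share of that setting is not given, so its 13.8% cannot be read against the main shares.

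Several of the strongest single rises were X-linked. They included Slc6a8 and Armcx1. The only risers of the oxidative phosphorylation and cholesterol lists, Ndufa1 and Ebp, were X-linked too, with smaller changes (1.25 and 1.49). The X-linked genes that follow were named after their values were seen. Nr0b1 (Dax1), a naive regulator, read 933 and 671 at Day6, against 77 and 75.1 in E11.5PGCs, and rose by 3.38 ± 0.30. Prps1, an enzyme of nucleotide precursor synthesis, read 1396 and 3402 at Day6, against 54.1 and 78.4 in E11.5PGCs, and rose by 5.06 ± 0.48. Pgrmc1, a heme-binding membrane protein, read 1020.0 and 889 at Day6, against 61.5 and 58 in E11.5PGCs, and rose by 4.0 ± 0.19. Hprt, the purine salvage enzyme long used as a dosage marker of the X chromosome, read 5503 and 2456 at Day6, against 2556 and 1006 in E11.5PGCs, and rose by 1.20 ± 0.21, with overlapping arrays and an adjusted p of 0.352 without the block. The direction was not uniform, since Rhox6 on the same chromosome fell. Of 2 Y-linked genes tested, Zfy1 was called lower (adjusted p = 0.0143, and 0.0763 without the block) and Kdm5d was not called (0.0554). The sex makeup of the samples is not stated, and its part in these values was not tested.

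**Figure D5:**
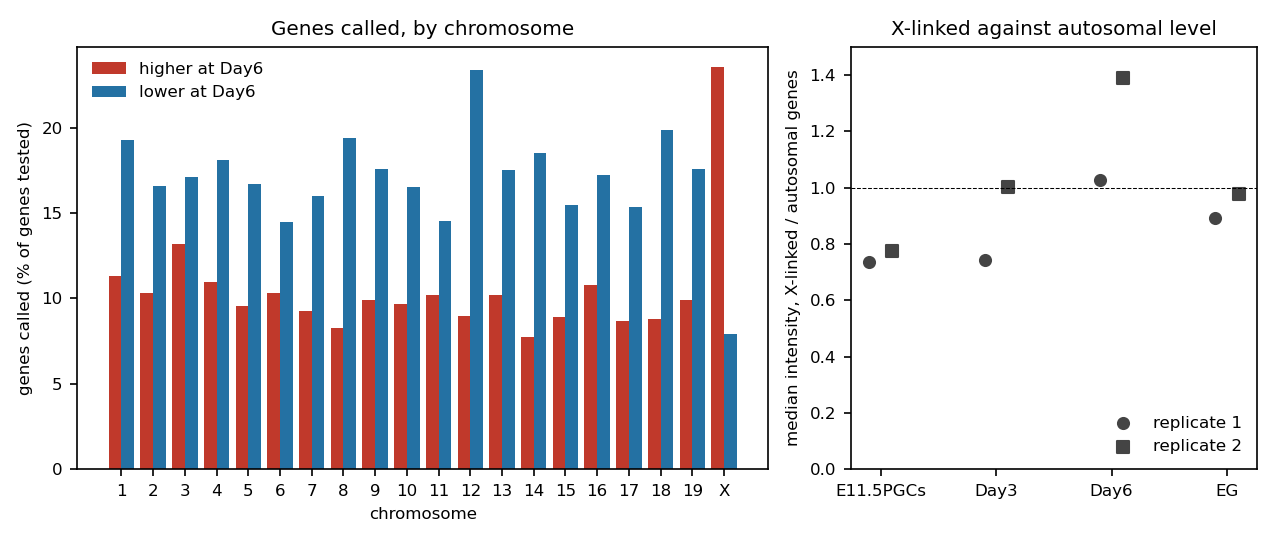
Left, percent of tested genes called higher (red) and lower (blue) at Day6 on each chromosome; the X chromosome has the largest share higher (23.5%) and the smallest share lower (7.92%). Right, ratio of the median X-linked to the median autosomal intensity for each array in the order of culture (circle, replicate 1; square, replicate 2); Day6 lies at 1.03 and 1.39, above E11.5PGCs at 0.735 and 0.776.

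Some probes had values in one group alone and were not tested, since the reason for missing values is not stated. Both Day6 arrays and neither E11.5PGCs array had a value for 87 probes, with a median intensity of 1.99, and the reverse held for 169 probes, with a median of 1.62. Among the brightest with a symbol, Cd3g, a chain of the T cell receptor complex, read 114 and 137 at Day6. Prl2c5, a placental prolactin relative, read 47.1 and 2.27 and BC053393 8.66 and 21.9 at Day6. In E11.5PGCs alone, Tcf21, a factor of gonadal mesenchyme, read 4.8 and 13.8, and Pparg, a nuclear receptor of fat cells, 10.2 and 7.28. Wdr66 read 6.2 and 10.9 and the chemokine gene Cxcl2 3.42 and 8.22 in E11.5PGCs.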

How the data were processed

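The deposited table holds spot intensities on a linear scale from one-colour arrays (aminoallyl RNA, Cy5, per the labels' protocols); the authors scaled each array to a median near 20, as the deposited values show, and neither their background correction nor why some cells are empty is stated. Intensities were taken to log2, missing values stayed missing, and limma 3.58.1 (R 4.3.3) was fitted to all 8 arrays with group and array series as terms (3 residual degrees of freedom), with Benjamini-Hochberg adjustment over 20136 probes. Between 21126 and 22404 probes had a value on each array; 2 arrays a group limit the precision. The series, read from array names in the labels, pairs the replicates: deviations from group means correlated at 0.547 between E11.5PGCs and Day6, 0.62 between E11.5PGCs and Day3 and 0.694 between Day3 and Day6. Of 23473 probes, 16631 had 1 symbol and 6842 none. Genes use their brightest probe; of 181 genes with several tested probes, 5 had opposite calls and 40 were called by only some. Members and lists were chosen with earlier results of these data known. Named genes are the 10 highest and 10 lowest called, the 6 brightest near the floor in each group, up to 4 per list (called first), 20 markers, the 8 with the largest difference between series and the 4 brightest measured in 1 group only. The fit was tested on simulated data. Alternatives left out the block, arrays or dim probes, or changed the scaling, pseudocount (2.04) or variance model. Figures used matplotlib 3.10.9.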

Additional observations from a re-analysis of the deposited data

How the results depend on the processing

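The counts of probes called, the 26 lists and 137 named genes were recomputed under 12 alternatives. Genes named only after their values were seen, such as Nr0b1, Prps1, Pgrmc1, Hprt, Ebp, Mael and Idi1, were not among those 137. The share of X-linked genes called higher is given only for the fit without the block and the 4 arrays alone. The fit without the replicate block called 1896 probes (933 higher and 963 lower), and the 4 arrays alone gave 1993 (995 and 998). With 1 Day6 or E11.5PGCs array left out, where the lone array is assumed to vary like the other groups, the total ran 2259 to 4138, higher calls 1160 to 1555 and lower calls 1099 to 2583. Of 1643 recomputed changes of named genes, 1468 kept their direction and side of the threshold, 141 lost the call, 19 gained one and 15 changed sign, all 15 in genes with no call. Quantile normalization turned Ephb2 to 0.0882 and Prdm14 to 0.0117, and centring turned Ephb2 to 0.0866 and Cdx2 to 0.0221. With 1 array left out, Ephb2 ran -0.35 to 0.33, Pdia3 -0.0689 to 0.29, Tfcp2l1 -0.56 to 0.94, Prdm14 -0.29 to 0.0809, Tfap2c -1.84 to 0.0662, Stra8 -1.28 to 5.78 and Acta2 -0.42 to 4.18. Centring moved list medians to 0.21 (LIF), -0.85 (cholesterol), 0.46 (DNA methylation), -0.0654 (imprinted), -0.32 (endothelium) and 0.051 (extraembryonic). Quantile normalization gave 0.17 for LIF, -0.89 for cholesterol and -0.0046 for extraembryonic genes, and the pseudocount -0.90 for cholesterol, -0.0687 for imprinted and -0.28 for endothelial genes. Without dim probes the medians were -0.61 for MEK/ERK, 1.53 for annexin and S100, 0.19 for gonadal, -0.31 for endothelial and 0.24 for extraembryonic genes. With 1 array left out, medians ran 0.19 to 0.55 for core and 0.86 to 1.24 for naive pluripotency, -1.27 to -0.57 for meiosis, -0.78 to -0.14 for MEK/ERK, -0.39 to -0.12 for Wnt, -0.063 to 0.18 for LIF, -0.23 to -0.0231 for cell cycle, -0.0176 to 0.52 for glycolysis, -0.98 to -0.89 for cholesterol, 0.13 to 0.71 for amino acid and 0.0934 to 1.04 for stress genes. They ran 0.24 to 0.53 for DNA methylation, -0.29 to -0.0648 for imprinted, -0.0381 to 0.92 for MHC class I, 0.42 to 1.42 for annexin and S100, -0.40 to 0.043 for gonadal, -0.59 to -0.19 for endothelial, -0.35 to -0.0468 for blood and -0.0272 to 0.0414 for extraembryonic genes. The cause of these shifts was not tested. Dim probes limit what can be sized: 370 of the probes called higher had E11.5PGCs near the floor, and 243 of those called lower had Day6 near it.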
